A study of Mus musculus with 90 samples.

Results

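The 8 genes of glycogen synthesis and breakdown followed here by RNA-seq of mouse liver are Ugp2, Gys2 and Gbe1 for synthesis, Pygl and Phka2 for breakdown, and Ppp1r3b, Ppp1r3c and Ppp1r3g for the control of both. They were chosen by name from the 24308 genes of the deposited expression table, and where a gene had several RefSeq transcripts the identifier with the highest mean over all 54 libraries was kept. That choice applied to Ugp2 and Phka2, and the 8 genes passed the filter on low values in each of the 5 RNA experiments. In the feeding experiment Ppp1r3g did so only through a single group of mice.

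Liver stores glucose as glycogen after a meal and releases it between meals. UGP2 makes UDP-glucose, glycogen synthase (GYS2 in liver) joins the glucose units into chains, and the branching enzyme GBE1 adds the branches. Glycogen phosphorylase (PYGL in liver) removes glucose units from the chain ends and is switched on by phosphorylase kinase, of which PHKA2 is the liver alpha subunit. Protein phosphatase 1 acts in the opposite direction, switching glycogen synthase on and phosphorylase off, and the PPP1R3 proteins are the subunits that bring it to glycogen. PPP1R3B, also called GL, is the main liver form, PPP1R3C is also called PTG, and PPP1R3G is a further member of the family.

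The libraries were made from the livers of single mice of C57BL/6 background that had received food only at night for 4 days. The study's methods name the substrain C57BL/6J for the L-IRSdKO line and C57BL/6N for the feeding, injected and Nr3c1 (fl/fl) mice, and all comparisons stay within an experiment. Zeitgeber time (ZT) counts hours from lights on, and food was given at ZT12 to the fed groups and withheld from the unfed ones. In the feeding experiment, wild-type male mice aged 10 weeks were taken at ZT10, at ZT14 without food (ZT14-unfed) or at ZT14 with food (ZT14-fed), with 2 mice per group and ribosomal RNA removed before sequencing. The other 4 experiments used poly(A) RNA at ZT14. Injected wild-type mice of the same age, 4 per group, were fed and given vehicle (PBS), the glucocorticoid dexamethasone (dex, 1 mg/kg), the insulin receptor antagonist S961, or dex and S961 together 30 minutes before food, or were left unfed with vehicle. In L-GRKO mice, which carry Nr3c1 (fl/fl) alleles of the glucocorticoid receptor (GR) gene, Cre was delivered to adult hepatocytes by an AAV8 virus under the Tbg promoter about 2 weeks before the feeding routine. These 4 mice and 4 controls of the same floxed genotype given a GFP virus were unfed. L-IRSdKO mice lacked the insulin receptor substrates Irs1 and Irs2 in liver through Alb-Cre, a transgene active from early life, and 4 of them aged 10 weeks were compared with 4 Irs1 (fl/fl), Irs2 (fl/fl) mice without Cre, all fed and injected with dex. In the diet experiment, wild-type male mice had 10 weeks of high-fat diet from the age of 5 weeks (obese) or chow (lean), each unfed or fed, with 3 mice per group. GR and FOXO1 ChIP-seq peaks came from pooled livers of 3 to 4 unfed mice at ZT14, and DNase hypersensitive sites (DHSs) from all DNase libraries combined.

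Expression was deposited as RPKM, reads scaled to transcript length and to the mapped reads of the library, which keeps no absolute depth. No counting interval is therefore given, and the spread between mice is the measure of error. Changes are differences of mean log2(RPKM + 0.5), written as log2 changes with their standard error (SE), and this scale understates the changes of genes with low RPKM. Each experiment was tested apart with limma, leaving out genes whose mean there was under 0.5 RPKM, and a gene was called where its p-value, adjusted by Benjamini-Hochberg over all genes tested, was under 0.05. Where groups are said not to overlap, this describes the values, and the share of all genes without overlap was not counted. With few mice per group such separation can arise by chance. In whole liver, more RNA of a gene per cell and a larger share of the cells that make it cannot be told apart.

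Of the targeted genes, Nr3c1 and Irs1 were low in the mutant livers. Nr3c1 stood at 3.93 to 5.35 RPKM in L-GRKO and 12.8 to 16.2 in the GFP controls, and Irs1 at 0.15 to 0.32 in L-IRSdKO and 2.21 to 4.73 in the floxed controls, but Irs2 overlapped between those groups and was not called (adjusted p = 0.31, limma). The hepatocyte marker Alb was at 650 to 914 RPKM in the L-IRSdKO experiment and at 18853 to 60597 in the others, so levels were not compared between experiments. In ZT14-unfed replicate 2 of the feeding experiment the summed RPKM of 4 skeletal muscle markers was 172, against at most 0.592 in the other 53 libraries. L-IRSdKO replicate 1 deviated most from its group (SD of its log2 deviations 0.514, against 0.322 to 0.331 in the other 3), although Irs1 was as low in it as in the rest.

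Most of the 8 genes lay near sites that both GR and FOXO1 occupied in unfed liver. GR is the hormone receptor that dex activates, and FOXO1 is a transcription factor that insulin signaling keeps out of the nucleus. Of the 8 genes, 7 had peaks of both factors within 50 kb of the transcription start, and Phka2 had neither. Among 19780 genes placed in the mm9 annotation the share with both was 24.9%, and among the 10314 of them that averaged 0.5 RPKM or more it was 36.9%. Both shares are given as background and the difference was not tested. Within 20 kb the genes with both were 5 (12.5% of all placed genes), since the nearest GR peaks of Ugp2 and Ppp1r3b were 27401 bp and 25714 bp upstream. The Gys2 start itself was occupied, with the centre of a GR peak 10 bp upstream and that of a FOXO1 peak 60 bp downstream of it, and the Pygl peaks lay 2307 bp and 2369 bp upstream. In Gbe1 the nearest pair lay in an intron, 14779 bp and 14825 bp past the start. The 3 phosphatase subunits had the most GR peaks within 50 kb together with Gbe1: 5 each for Ppp1r3b and Ppp1r3g and 4 each for Ppp1r3c and Gbe1. At Ppp1r3b and at Ppp1r3g, 4 of the 5 GR peaks overlapped a FOXO1 peak, and at Ppp1r3c 3 of 4 did, while 48.8% of all 10446 GR peaks overlapped one. At Gbe1 2 of 4 did, at Gys2 and Ugp2 1 of 2 each and at Pygl 1 of 1. The number of peaks per gene was not counted over all genes.

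**Figure D1:**
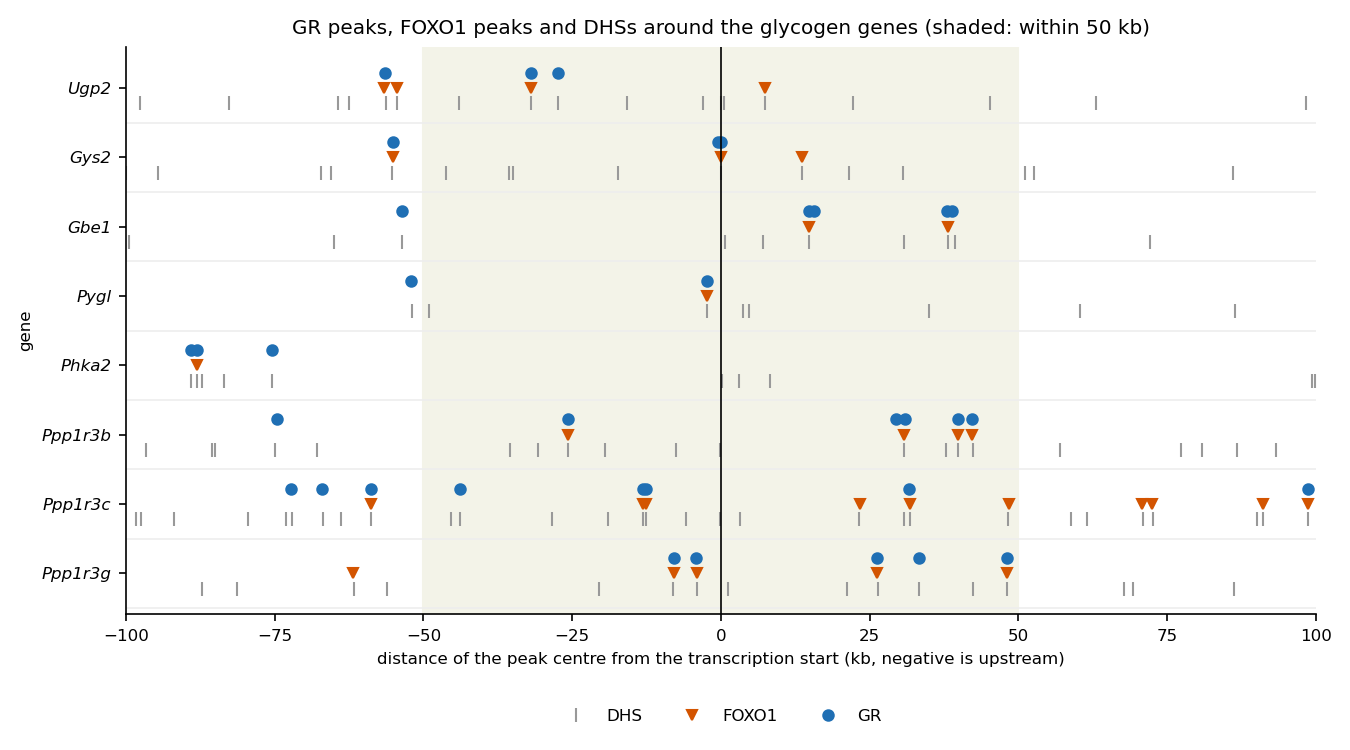
GR peaks, FOXO1 peaks and DHSs around the transcription start of each gene, by distance from the start in kb, negative upstream. Each mark is the centre of a site, shown out to 100 kb with the window of 50 kb shaded. The start of Gys2 carries all 3 kinds of mark, and Phka2 has DHSs but no GR or FOXO1 peak within 50 kb.

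The sequences under 6 of these peaks at Ppp1r3g, Ppp1r3c and Ppp1r3b are shown because each holds a motif of either factor. These genes were each called with the meal in the feeding experiment and in L-IRSdKO. Ppp1r3b was not called after dex, S961 or both, and none of these genes was called in L-GRKO. The sequences were read from the mm9 genome in the direction of the gene they are listed with. Capitals mark motifs searched on both strands: the palindromic GR element GNACANNNTGTNC, which can overlap the hexamer, the GR hexamer TGTTCT, and the FOXO core TGTTTAC. The related insulin-response motif TGTTTTG was searched as well and is in none of the 6. Other peaks at these genes hold it, as the GR peak 25714 bp upstream of the Ppp1r3b start. The FOXO1 peak 48334 bp downstream of the Ppp1r3c start holds it too. Of all GR peaks of the same length of 180 bp, 7.8% held the GR element, 27.7% the hexamer and 7.3% the FOXO core, and of all FOXO1 peaks 3.3%, 19.5% and 18.8% did. The 6 were chosen for holding a motif, so these shares show no excess of motifs in them. Not every peak with a motif is shown: the GR peaks 30854 and 42267 bp downstream of the Ppp1r3b start, for example, each held a hexamer. Other peaks at these genes held none, as the GR peaks 26295, 33261 and 48096 bp downstream of the Ppp1r3g start. Within 8 kb upstream of the Ppp1r3g coding transcript (chr13, plus strand) lay a GR peak at chr13:36051690-36051869 with a FOXO core and another at chr13:36055521-36055700 with a hexamer. Both are intronic to a longer non-coding transcript of the locus. Upstream of Ppp1r3c (chr19, minus strand) lay chr19:36824078-36824257 with 2 hexamers and chr19:36823602-36823781 with a GR element, and 23292 bp downstream of its start the FOXO1 peak chr19:36787762-36787941 held a FOXO core. Downstream of Ppp1r3b (chr8, plus strand), the intergenic GR peak chr8:36478558-36478737 held a GR element. A match describes these letters only and does not show which site a factor used.
Ppp1r3g GR peak 7943 bp upstream: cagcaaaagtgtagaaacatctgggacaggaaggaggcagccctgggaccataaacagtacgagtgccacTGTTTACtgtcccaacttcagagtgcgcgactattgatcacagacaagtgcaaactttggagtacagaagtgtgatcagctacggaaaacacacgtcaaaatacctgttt
Ppp1r3g GR peak 4112 bp upstream: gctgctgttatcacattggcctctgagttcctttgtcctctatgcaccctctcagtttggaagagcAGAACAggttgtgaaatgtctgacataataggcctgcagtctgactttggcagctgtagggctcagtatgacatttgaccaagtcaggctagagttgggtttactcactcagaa
Ppp1r3c GR peak 13024 bp upstream: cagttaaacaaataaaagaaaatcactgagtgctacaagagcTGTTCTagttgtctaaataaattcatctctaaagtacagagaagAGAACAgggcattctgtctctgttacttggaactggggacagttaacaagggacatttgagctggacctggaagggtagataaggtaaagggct
Ppp1r3c GR peak 12548 bp upstream: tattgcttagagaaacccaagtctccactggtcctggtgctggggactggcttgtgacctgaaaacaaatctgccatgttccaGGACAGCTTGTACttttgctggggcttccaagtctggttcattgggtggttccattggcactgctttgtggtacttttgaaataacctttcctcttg
Ppp1r3c FOXO1 peak 23292 bp downstream: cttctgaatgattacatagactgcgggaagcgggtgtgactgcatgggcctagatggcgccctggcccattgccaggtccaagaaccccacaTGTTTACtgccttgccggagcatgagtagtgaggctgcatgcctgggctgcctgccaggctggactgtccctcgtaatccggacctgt
Ppp1r3b GR peak 39852 bp downstream: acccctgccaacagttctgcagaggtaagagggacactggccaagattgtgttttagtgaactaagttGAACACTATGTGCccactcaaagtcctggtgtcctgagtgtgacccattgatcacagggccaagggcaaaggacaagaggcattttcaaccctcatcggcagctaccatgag

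The 5 GR peaks shown shared 168, 101, 168, 178 and 145 bp with a FOXO1 peak, in the order printed, and the FOXO1 peak downstream of Ppp1r3c overlapped no GR peak.

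In the injected mice Gys2, Ugp2 and Pygl were abundant, and their group means lay close together. Gys2 ranged from 116 to 196 RPKM, Ugp2 from 96.7 to 165 and Pygl from 99.9 to 155, so these 3 could not be ordered beyond their spread. Gbe1 (34.1 to 55.2 RPKM) lay below all 3, and Phka2 (2.93 to 5.05 RPKM) below Gbe1. Of the phosphatase subunits Ppp1r3b was highest at 69.5 to 131 RPKM, Ppp1r3c covered 8.75 to 122 RPKM and Ppp1r3g 0.20 to 9.98 RPKM. Ratios of the highest to the lowest group mean in this experiment were 1.18 for Gys2, 1.24 for Pygl and 1.33 for Ugp2, 1.38 for Ppp1r3b, and 8.49 for Ppp1r3c and 8.18 for Ppp1r3g. The spread between mice was also widest for the last 2: the median coefficient of variation over the 13 groups of 3 or 4 mice was 7.5% for Pygl, 11.9% for Gys2, 15.4% for Ppp1r3b, 29.8% for Ppp1r3c and 74.7% for Ppp1r3g.

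**Figure D2:**
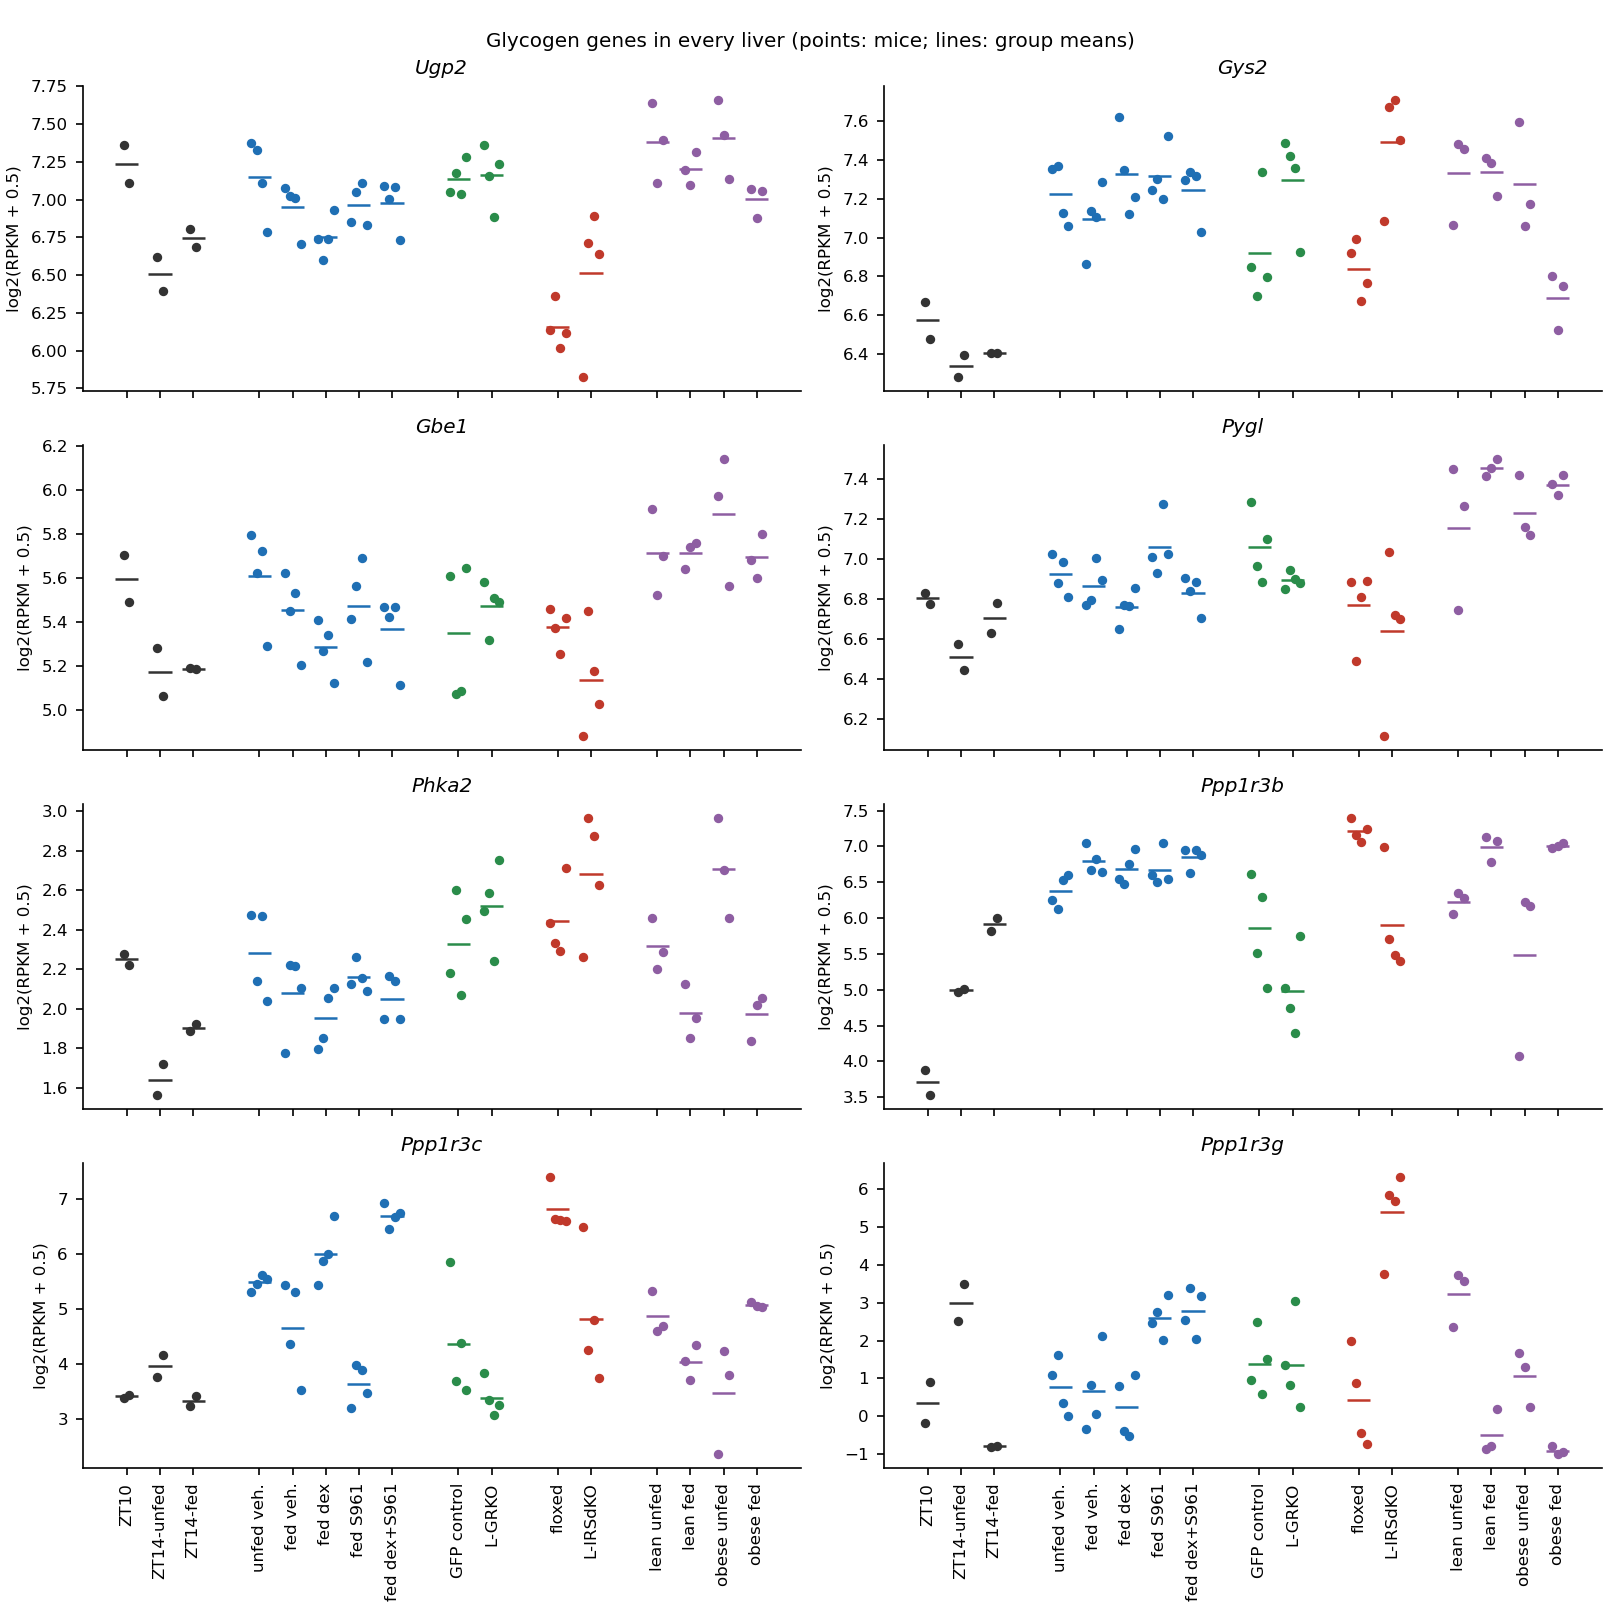
Each gene in every mouse as log2(RPKM + 0.5), by group. Points are single mice and lines are group means. Gys2, Pygl and Ugp2 stay between 56.2 and 209 RPKM in each library, whereas Ppp1r3g runs from 0 to 78.9.

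In the feeding experiment the change from ZT10 to ZT14 without food called 4 of the 8 genes, where 8.99% of all 10904 genes tested were called. Their median log2 change was -0.26, beside -0.10 over all genes. Among the synthesis genes, Ugp2 was at 164 and 138 RPKM at ZT10 and at 97.9 and 83.8 at ZT14-unfed, a log2 change of -0.73 (SE 0.12, n = 2 mice per group, adjusted p = 0.0183, limma). Gys2 (101 and 88.7, then 77.4 and 83.7 RPKM) and Gbe1 (51.6 and 44.6, then 38.4 and 33.0) were lower in each ZT14-unfed mouse but were not called. Of the breakdown genes, Phka2 fell from 4.35 and 4.16 to 2.45 and 2.79 RPKM (log2 change -0.61, SE 0.11, adjusted p = 0.0198, limma), and Pygl, at 114 and 109 then 95.0 and 86.8 RPKM, was not called.

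Ppp1r3b and Ppp1r3g rose over the same hours without food. Ppp1r3b was at 14.3 and 11.0 RPKM at ZT10 and 30.8 and 31.8 at ZT14-unfed, a log2 change of 1.29 (SE 0.13, adjusted p = 0.0055, limma). Ppp1r3g was at 0.38 and 1.38 RPKM at ZT10 and 5.21 and 10.7 at ZT14-unfed. Its log2 change was 2.63 (SE 0.40, adjusted p = 0.013, limma). It passed the filter on low values in this experiment only through the ZT14-unfed mice, so the filter and this change are not independent. In both genes the ZT14-unfed mice lay above the ZT10 mice, and relative to its level Ppp1r3g differed more between the 2 mice of each group than Ppp1r3b did. Leaving out any of the 4 mice ended the call of Phka2 (-0.53 to -0.69, adjusted p = 0.0516 to 0.089), ZT10 replicate 1 that of Ppp1r3g (2.09, adjusted p = 0.0568) and ZT10 replicate 1 or ZT14-unfed replicate 2 that of Ugp2 (-0.60 and -0.61, adjusted p = 0.0818 and 0.0631, limma).

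Food between ZT12 and ZT14 took Ppp1r3b and Ppp1r3g in opposite directions. Against the same ZT14-unfed mice, 3 of the 8 genes were called, where 6.76% of genes were, and their median log2 change was 0.13 beside 0.12 for all genes. Ppp1r3b stood at 56.2 and 63.3 RPKM in ZT14-fed livers, a further rise of 0.92 over ZT14-unfed (SE 0.13, adjusted p = 0.0137, limma). Ppp1r3g was at 0.07 and 0.08 RPKM in the fed livers, a log2 change of -3.79 (SE 0.40, adjusted p = 0.0051, limma). The groups did not overlap in Ppp1r3b or in Ppp1r3g. The ZT14-unfed mice were those through which Ppp1r3g passed the filter, and with no filter none of the 8 genes was called.

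Ppp1r3c was at 13.2 and 17.5 RPKM in ZT14-unfed livers and at 8.92 and 10.2 in ZT14-fed livers, a log2 change of -0.65 (SE 0.14, adjusted p = 0.0434, limma). The higher of the unfed values came from the library with the muscle markers, and PPP1R3C is also made in muscle. Without that mouse the change was -0.45 (adjusted p = 0.151, limma), and the part of muscle RNA in it was not tested. The muscle phosphorylase Pygm was at 6.03 RPKM in that library. Gys2 (84.4 and 84.3 RPKM fed), Pygl (98.7 and 109), Ugp2 (112 and 102), Gbe1 (36.0 and 35.9) and Phka2 (3.20 and 3.29) were not called. Leaving out ZT14-fed replicate 1 or 2 also ended the calls of Ppp1r3c (-0.56 and -0.74, adjusted p = 0.157 and 0.174) and Ppp1r3b (1.01 and 0.83, adjusted p = 0.0656 and 0.127), and leaving out replicate 2 that of Ppp1r3g (-3.80, adjusted p = 0.0642, limma).

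From ZT10 to ZT14-fed, a comparison that uses the same libraries, Ppp1r3b alone of the 8 genes was called, where 9.34% of genes were. Its mean was 12.7 RPKM at ZT10 and 59.8 at ZT14-fed, a log2 change of 2.20 (SE 0.13, adjusted p = 5.96e-04, limma), and it stayed called with any of the 4 mice left out (2.03 to 2.38). The median log2 change of the 8 genes was -0.26, beside 0.01 over all genes.

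**Figure D3:**
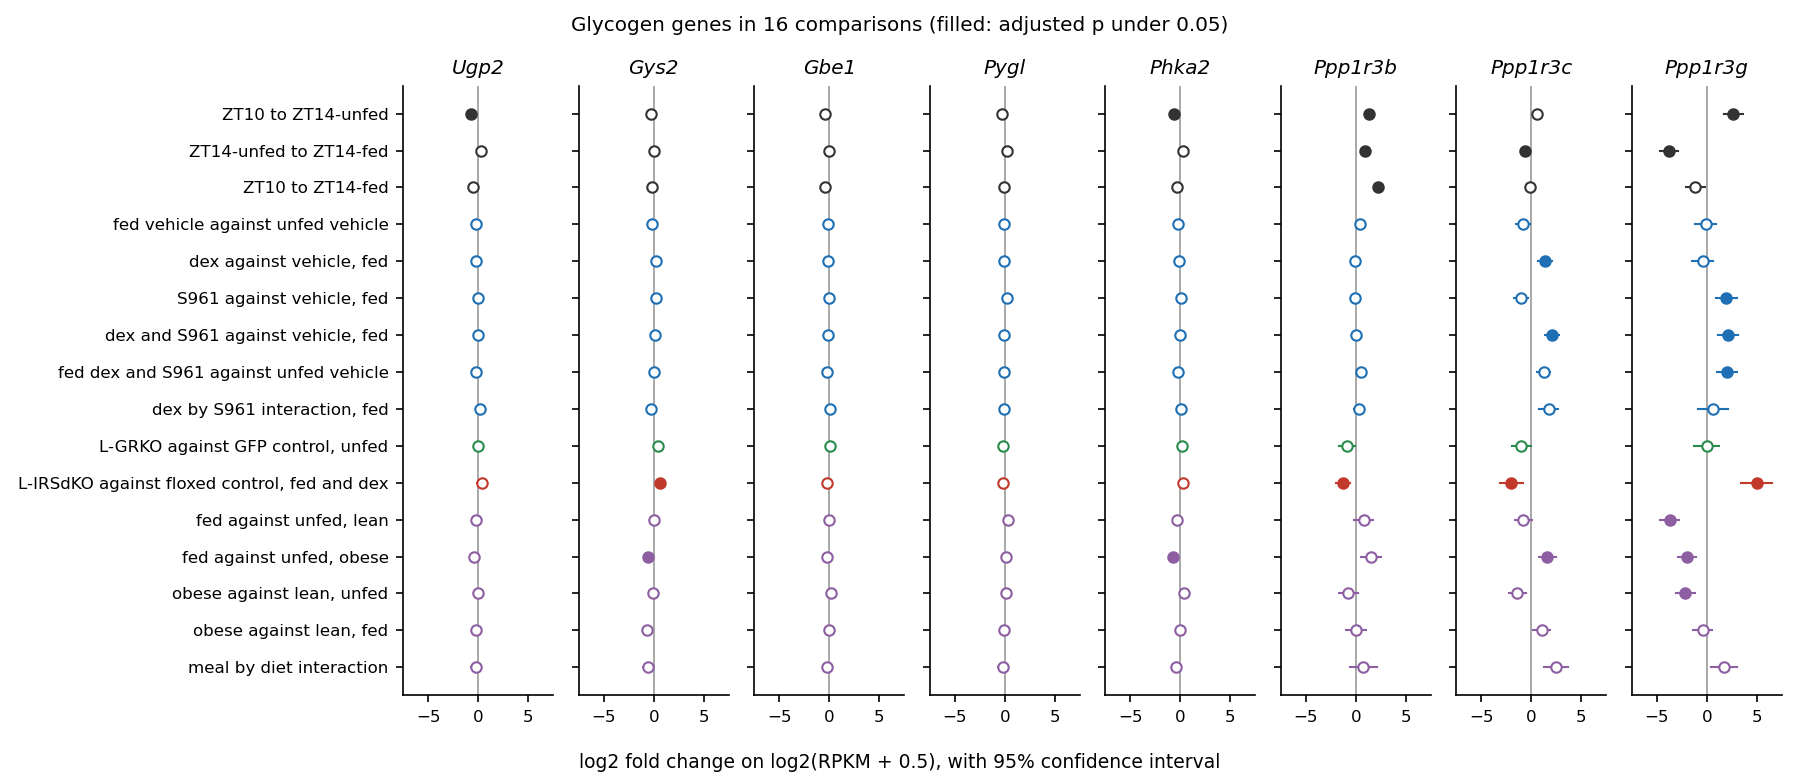
Log2 changes of the 8 genes in each comparison, on the log2(RPKM + 0.5) scale, with 95% confidence intervals. Filled points were called at an adjusted p under 0.05. Ppp1r3g spans the widest range, from -3.79 to 4.97, and Pygl and Gbe1 have no filled point.

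In vehicle-injected mice no glycogen gene was called between fed and unfed livers, where 3.13% of 11248 genes were. With 4 mice per group, 2 of the 8 genes had an unadjusted p under 0.05 in limma, as did 2174 of all genes. Ppp1r3b was at 75.4, 69.5, 92.4 and 96.9 RPKM in unfed and 131, 101, 113 and 99.6 in fed vehicle livers, and the groups did not overlap (log2 change 0.42, SE 0.14, adjusted p = 0.119, limma). In an alternative fit with a block for replicate number Ppp1r3b was called. Ppp1r3c was at 39.5, 43.7, 48.5 and 46.4 RPKM in unfed mice, and at 42.8, 20.1, 39.2 and 11.0 in fed mice (-0.83, SE 0.32, adjusted p = 0.167, limma). Fed replicates 2 and 4 lay well below the unfed mice and replicates 1 and 3 among or just under them. Ppp1r3g was low in both groups, at 0.29 to 3.81 RPKM fed and 0.51 to 2.59 unfed (-0.10, 95% interval -1.14 to 0.93). Summed RPKM of 5 Kupffer cell markers was 62.6 to 98.5 in fed vehicle mice, 45.1 to 58.7 in unfed vehicle mice, 40.1 to 64.1 after dex, 42.7 to 64.5 after S961 and 50.8 to 59.8 after both agents. In the same mice the summed RPKM of 4 endothelial markers was 53.2 to 62.1 in fed vehicle and 35.1 to 50.7 after dex. It was 35.8 to 53.1 after both agents, 49.2 to 54.9 after S961 and 46.5 to 55.3 in unfed vehicle mice. The part of these markers in the values of the injected mice was not tested.

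In fed mice a different phosphatase subunit was called after dex than after S961. Each agent was compared with the same 4 fed vehicle mice. After dex, Ppp1r3c was at 43.2, 57.9, 64.0 and 103 RPKM, each above the highest vehicle mouse (42.8). It was the gene called of the 8 (log2 change 1.34, SE 0.32, adjusted p = 0.0262, limma), where 3.19% of genes were called. Ppp1r3b (93.0, 88.5, 107 and 124 RPKM) and Ppp1r3g (1.24, 0.27, 0.20 and 1.65 RPKM) overlapped the vehicle mice. The median log2 change of the 8 genes was -0.12 after dex, beside -0.10 over all genes. Leaving out dex replicate 2 or 4 or vehicle replicate 2 or 4 ended the Ppp1r3c call (0.97 to 1.39, adjusted p = 0.0565 to 0.0845, limma), and so did a fit of these 2 groups alone (adjusted p = 0.174).

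After S961, Ppp1r3g was called instead, where 1.89% of genes were. It was at 4.98, 6.19, 3.56 and 8.69 RPKM, against 0.29, 1.27, 0.55 and 3.81 in vehicle mice, a log2 change of 1.94 (SE 0.49, adjusted p = 0.0497, limma). The groups overlapped by a single mouse each, vehicle replicate 4 and S961 replicate 3. Ppp1r3c was at 8.75, 15.4, 14.4 and 10.7 RPKM after S961 and was not called (-1.02, SE 0.32, adjusted p = 0.127, limma). The median log2 change of the 8 genes was 0.05, beside -0.08 over all genes. The Ppp1r3g call lay at the threshold: leaving out any mouse other than vehicle replicate 4 ended it (1.60 to 2.13, adjusted p = 0.0519 to 0.167, limma), as did a fit of the compared groups alone, no filter on low values, no variance trend and a pseudocount of 0.1, at the same threshold.

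With dex and S961 together both subunits rose. Of the 8 genes 2 were called against fed vehicle, where 10.6% of genes were, and the median log2 change was 0.04, beside -0.14 over all genes. Ppp1r3c was at 122, 87.0, 102 and 107 RPKM in the 4 livers, each far above the highest vehicle mouse at 42.8 (log2 change 2.04, SE 0.32, adjusted p = 6.48e-04, limma). Ppp1r3g was at 5.32, 9.98, 3.65 and 8.49 RPKM (2.12, SE 0.49, adjusted p = 0.0097, limma), and one treated mouse lay under the highest vehicle mouse. Neither call was lost with any of these 8 mice left out.

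Ppp1r3c after both agents lay above the levels after either alone, apart from the highest dex mouse. Its mean was lowest after S961 alone and highest after both agents. In contrasts chosen after seeing the data, dex on top of S961 gave a log2 change of 3.06 (SE 0.32, adjusted p = 2.63e-05, limma), while S961 on top of dex gave 0.70 (SE 0.32, adjusted p = 0.299, limma). For Ppp1r3g the reverse held: S961 on top of dex gave 2.54 (SE 0.49, adjusted p = 0.0067) and dex on top of S961 0.18 (SE 0.49, adjusted p = 0.957, limma). The interaction of the agents, which tests whether their joint change departs from the sum of the single ones, was 1.71 for Ppp1r3c (SE 0.46, unadjusted p = 0.00136) and 0.60 for Ppp1r3g (SE 0.70, unadjusted p = 0.40). No gene of the 11248 was called for it in limma, 513 had an unadjusted p under 0.05, and the adjusted p of both was 1.00. Of all genes, 1.91% were called for dex on top of S961 and 2.95% for S961 on top of dex. A direct contrast of S961 with dex, also chosen after seeing the data and calling 7.45% of genes, called Ppp1r3c (-2.36), Ppp1r3g (2.35) and Pygl, which was 0.30 higher on the log2 scale after S961 (SE 0.09, adjusted p = 0.0489, limma).

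**Figure D4:**
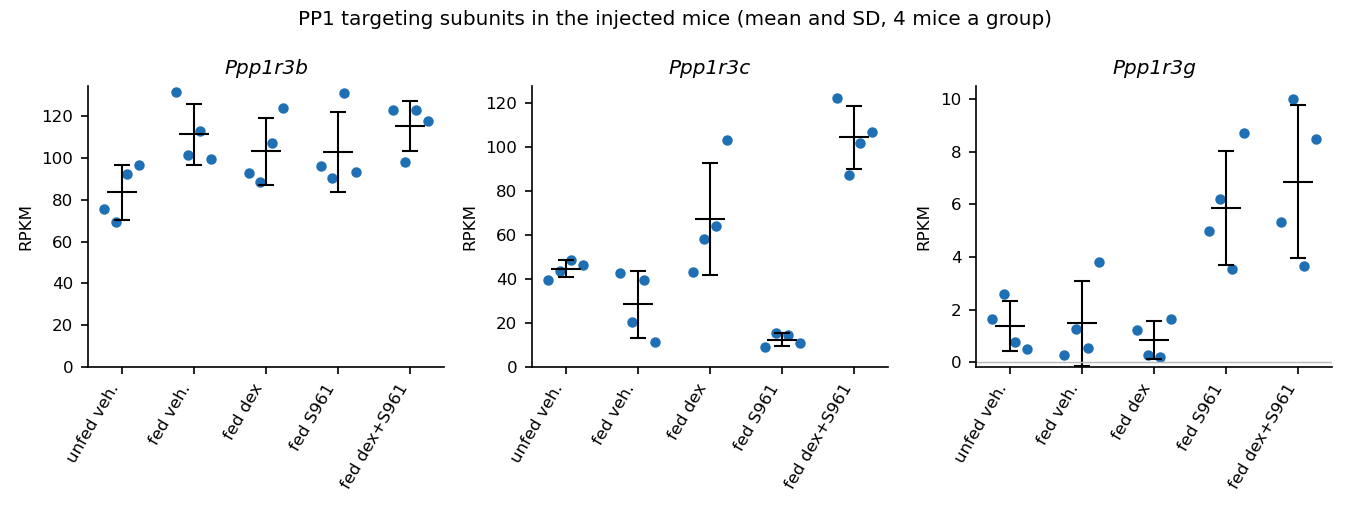
RPKM of Ppp1r3b, Ppp1r3c and Ppp1r3g in the 5 groups of injected mice on linear axes. Points are mice, horizontal bars are means and vertical bars SD (n = 4). Ppp1r3c is lowest after S961 (mean 12.3) and highest after dex and S961 (mean 104), whereas Ppp1r3g is high in both groups given S961.

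Fed mice given both agents were also compared with unfed vehicle mice, the state without food and without injected hormone or antagonist. Ppp1r3g was called of the 8 genes, where 2.32% of genes were: it was at 1.64, 2.59, 0.78 and 0.51 RPKM in the unfed mice, all below the fed mice given both agents (log2 change 2.02, SE 0.49, adjusted p = 0.0339, limma). Ppp1r3c (1.21, SE 0.32, adjusted p = 0.0546) and Ppp1r3b (0.47, SE 0.14, adjusted p = 0.111, limma) were higher in each treated mouse than in each unfed mouse without being called. The median of the 8 log2 changes was -0.04, as it was over all genes. The Ppp1r3g call was lost on leaving out treated replicate 1, 2 or 4 or unfed replicate 1, 3 or 4 (1.76 to 2.12, adjusted p = 0.0665 to 0.119, limma).

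In unfed L-GRKO livers none of the 8 genes was called against the GFP controls, where 6.68% of 11646 genes were. Of the 8 genes, 3 had an unadjusted p under 0.05 in limma, as had 2345 of all genes. Ppp1r3b was at 97.8, 45.2, 77.8 and 31.9 RPKM in controls and at 32.2, 26.3, 20.5 and 53.2 in L-GRKO (log2 change -0.88, 95% interval -1.66 to -0.10, adjusted p = 0.187, limma). Ppp1r3c was at 57.9, 12.4, 20.4 and 11.0 RPKM in controls and at 13.8, 9.65, 7.93 and 9.14 in L-GRKO (-0.99, 95% interval -1.92 to -0.05, adjusted p = 0.22, limma). In both genes the means were lower in L-GRKO and the groups overlapped, with a wide spread among the controls.

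Gys2 was at 115, 103, 161 and 111 RPKM in controls and 178, 171, 164 and 121 in L-GRKO (0.38, 95% interval 0.03 to 0.73, adjusted p = 0.211, limma). Ppp1r3g was at 1.44, 5.12, 0.99 and 2.36 RPKM in controls and 2.05, 1.28, 7.75 and 0.69 in L-GRKO (-0.02, 95% interval -1.24 to 1.21), an interval that leaves room for large changes either way. The median log2 change of the 8 genes was 0.00, beside 0.08 over all genes. The summed RPKM of 3 erythroid markers was 331 to 623 in L-GRKO and 223 to 289 in controls, and its part in these values was not tested.

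The largest change of any of the 8 genes among these comparisons was that of Ppp1r3g in fed, dex-injected L-IRSdKO livers. Of the 8, 4 were called, where 17.4% of 12963 genes were, and their median log2 change was 0.06, beside 0.03 over all genes. Ppp1r3g was at 3.44, 1.36, 0.23 and 0.11 RPKM in floxed controls and at 13.1, 56.9, 51.1 and 78.9 in L-IRSdKO, a log2 change of 4.97 (SE 0.69, adjusted p = 0.0042, limma). All 4 L-IRSdKO values exceeded every other value of this gene in its experiment, and replicate 1 was the lowest of them. With any 1 of the 8 mice left out the change stayed between 4.59 and 5.52 and called.

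The other subunits went the opposite way. Ppp1r3b was at 168, 142, 133 and 151 RPKM in controls and at 127, 52.0, 44.1 and 41.8 in L-IRSdKO (-1.32, SE 0.31, adjusted p = 0.0221, limma). Ppp1r3c was at 168, 99.6, 98.3 and 96.6 RPKM in controls and at 89.6, 18.7, 27.4 and 13.0 in L-IRSdKO (-1.99, SE 0.51, adjusted p = 0.0303, limma). L-IRSdKO replicate 1 lay just under the controls in both genes and far above the other 3 mutants. Without it the changes were larger, -1.68 for Ppp1r3b and -2.54 for Ppp1r3c. The call of Ppp1r3b was lost on leaving out L-IRSdKO replicate 2, 3 or 4 or control replicate 1 or 4 (-1.15 to -1.31, adjusted p = 0.0541 to 0.0664), and that of Ppp1r3c on leaving out any mouse other than L-IRSdKO replicate 1 (-1.63 to -2.06, adjusted p = 0.0567 to 0.0868, limma).

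Among the enzymes Gys2 rose, from 121, 127, 102 and 108 RPKM in controls to 135, 203, 209 and 180 in L-IRSdKO (log2 change 0.65, SE 0.14, adjusted p = 0.0151, limma), with no overlap and with the call kept without any 1 mouse. Pygl (118, 89.6, 112 and 118 against 68.8, 131, 105 and 103 RPKM) was not called, and neither were Ugp2 (69.9, 81.7, 64.3 and 68.9 against 56.2, 104, 118 and 99.1 RPKM), Gbe1 (37.6 to 43.5 against 29.0 to 43.2 RPKM) or Phka2 (4.40 to 6.05 against 4.30 to 7.29 RPKM). In Ugp2, 3 of the 4 mutants lay above all controls and replicate 1 below them. Summed RPKM of 5 Kupffer cell markers was 248 to 318 in L-IRSdKO and 141 to 262 in the controls, and that of 3 erythroid markers was 58.7 to 85.8 and 85.9 to 148. The endothelial markers Pecam1 (15.0 to 18.8 RPKM in L-IRSdKO, 9.34 to 11.5 in controls) and Stab2 (12.2 to 15.9, 9.37 to 10.7) were higher in each mutant mouse. Kdr overlapped (10.2 to 13.8, 8.8 to 10.3), and Clec4g had a lower mean in L-IRSdKO (60.9, against 65.7 in controls). The sum of these 4 endothelial markers overlapped at 83.4 to 126 and 81.9 to 108. The part of these markers in the glycogen gene values was not tested. Both genotypes were fed and had dex, so these values hold for that state alone.

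The ratio of Gys2 to Pygl RPKM, taken within each liver, set synthesis against breakdown enzyme in the same sample. It was 1.81 ± 0.204 (SD, n = 4) in L-IRSdKO, from 1.56 to 1.99, and 1.07 ± 0.239 (n = 4) in the floxed controls, from 0.907 to 1.42. It was 0.624 ± 0.048 (n = 3) in fed obese mice and 1.03 ± 0.097 (n = 3) in unfed obese mice, 0.922 ± 0.093 (n = 3) in fed lean mice and 1.19 ± 0.453 (n = 3) in unfed lean mice, whose range of 0.764 to 1.67 took in those of unfed obese and fed lean mice. The L-GRKO ratio (1.34 ± 0.219, n = 4) and that of the GFP controls (0.936 ± 0.289, n = 4) overlapped, as did those of fed dex mice (1.28 to 1.96, n = 4) and fed vehicle mice (1.18 ± 0.129, n = 4). These ratios are a description, with no test.

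**Figure D5:**
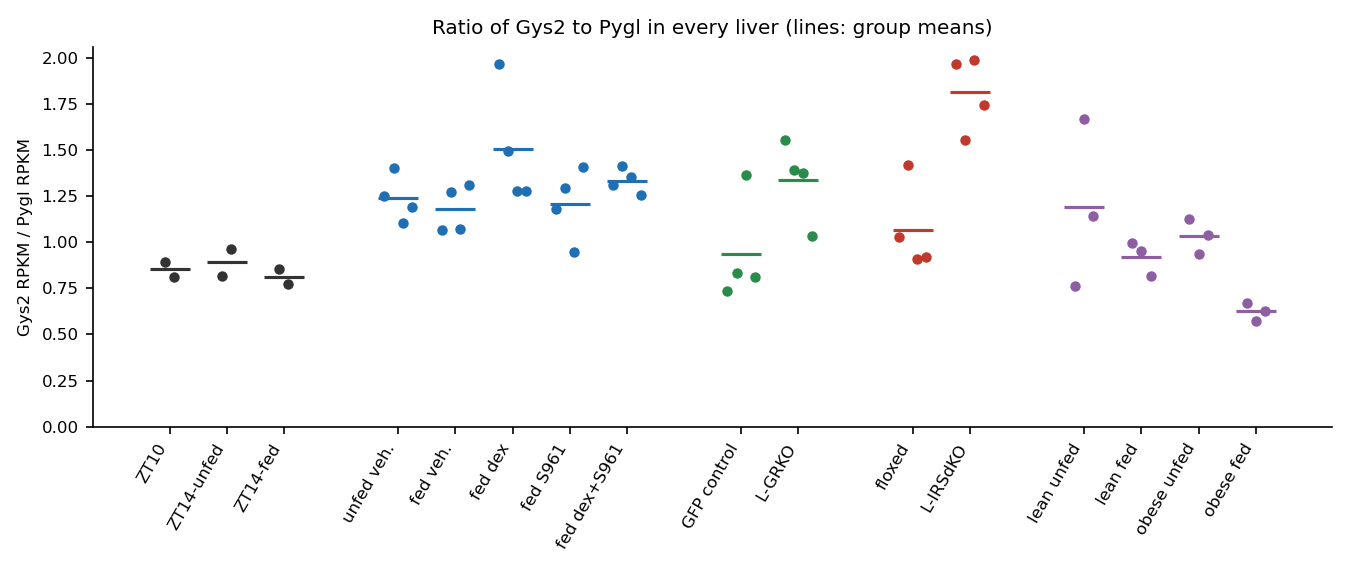
Ratio of Gys2 to Pygl RPKM in each liver, by group. Points are mice and lines are group means. The L-IRSdKO mice lie highest in their experiment (1.56 to 1.99), and the fed obese mice lowest in theirs (0.575 to 0.67).

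In lean mice of the diet experiment Ppp1r3g was below 1 RPKM after the meal. It was at 4.65, 12.7 and 11.3 RPKM in unfed lean livers and at 0.05, 0.08 and 0.65 in fed lean livers (log2 change -3.70, SE 0.43, n = 3, adjusted p = 4.1e-04, limma). This was the gene called of the 8, where 23.4% of 11431 genes were, and it stayed called with any of the 6 mice left out (-3.45 to -4.13). Ppp1r3b was at 65.9, 80.8 and 76.9 RPKM unfed and 139, 109 and 135 fed without being called (0.77, SE 0.44, adjusted p = 0.23, limma), and Ppp1r3c at 39.8, 23.8 and 25.3 unfed and 16.3, 12.6 and 19.8 fed (-0.83, SE 0.39, adjusted p = 0.146, limma). In both the fed and unfed lean mice did not overlap. Gys2 (133, 178 and 175 unfed, 170, 166 and 148 fed) gave a log2 change of 0.00 (95% interval -0.33 to 0.34). The median log2 change of the 8 genes was -0.09, beside 0.08 over all genes.

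In obese mice the meal called 4 of the 8 genes, where 7.65% of genes were called, and their median log2 change was -0.30, beside 0.02 over all genes. The food given at ZT12 may have differed between the diets, so food and obesity cannot be told apart in the meal values. Ppp1r3g was at 2.71, 1.95 and 0.70 RPKM in unfed obese livers and at 0.08 and 0.02, with the remaining mouse listed at 0, in fed obese livers (-1.98, SE 0.43, adjusted p = 0.0216, limma). Ppp1r3c rose, from 4.65, 18.4 and 13.5 RPKM unfed to 34.4, 32.8 and 32.4 fed (1.60, SE 0.39, adjusted p = 0.0321, limma). Unfed obese replicate 1 was the lowest mouse in Ppp1r3c and also in Ppp1r3b, where the unfed mice had 16.4, 74.5 and 71.3 RPKM and the fed mice 125, 128 and 132 (1.52, SE 0.44, adjusted p = 0.0562, limma). Without it the change of Ppp1r3c was 1.05.

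Gys2 was at 192, 133 and 144 RPKM unfed and 111, 91.6 and 107 fed (-0.58, SE 0.15, adjusted p = 0.0418), and Phka2 at 7.30, 6.00 and 5.00 unfed and 3.07, 3.56 and 3.66 fed (-0.74, SE 0.13, adjusted p = 0.0110, limma), in both cases without overlap. Pygl (171, 142 and 139 unfed, 166, 159 and 171 fed) was not called. Of the 4 calls only that of Phka2 was kept with each of the 6 mice left out in turn. That of Gys2 was lost without fed replicate 1, 2 or 3 or unfed replicate 1 (-0.43 to -0.64, adjusted p = 0.0615 to 0.16), that of Ppp1r3c without fed replicate 1, 2 or 3 (1.58 to 1.62, adjusted p = 0.0712 to 0.103), and that of Ppp1r3g without fed replicate 2 or 3 or unfed replicate 1 or 2 (-1.68 to -1.97, adjusted p = 0.0553 to 0.0836, limma). In a fit of the obese mice alone none of the 8 was called.

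Ppp1r3c gave meal values of opposite sign on the 2 diets, called in obese mice and not in lean mice. Each fed lean mouse lay below each unfed lean mouse, and each fed obese mouse above each unfed obese mouse. The interaction of meal and diet was 2.43 (SE 0.55, unadjusted p = 0.001, adjusted p = 0.0708, limma), which missed the threshold, where 0.744% of genes were called. Without unfed obese replicate 1 or 2 the interaction called 1 of the 8 genes. For Gys2 the interaction was -0.58 (SE 0.22, adjusted p = 0.239) and for Ppp1r3g 1.72 (SE 0.60, adjusted p = 0.224, limma), so the difference in meal response between diets was not established for either.

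Between diets within one feeding state, Ppp1r3g was the gene called of the 8 in unfed livers (5.22% of genes): it was lower in each obese mouse than in each lean mouse, a log2 change of -2.14 (SE 0.43, adjusted p = 0.0191, limma). The call was lost without unfed obese replicate 3 or unfed lean replicate 2 or 3 (-1.73 to -1.97, adjusted p = 0.0545 to 0.0676, limma). Ppp1r3c in the same livers gave -1.40 (SE 0.39, adjusted p = 0.062, limma). In fed livers none of the 8 was called by limma, where 0.507% of genes were. There, 2 of the 8 had an unadjusted p under 0.05, as had 2283 of all genes: Gys2 gave -0.64 (SE 0.15, adjusted p = 0.0811) and Ppp1r3c 1.03 (SE 0.39, adjusted p = 0.182, limma), both without overlap between the diets. The median of the 8 was -0.02 in unfed and -0.05 in fed livers, beside 0.07 and 0.01 over all genes. Summed RPKM of 4 endothelial markers was 28.9 to 37.7 in unfed obese, 49.1 to 59.3 in unfed lean, 34.7 to 36.6 in fed obese and 36.1 to 42.5 in fed lean mice, and that of 4 stellate cell or fibroblast markers was 56.5 to 92.9 in unfed lean and 40.5 to 54.5 in fed lean mice. The part of these markers in the values of the diet experiment was not tested.

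The rest of the pathway was followed through a list of 25 further genes, of which 19 to 21 passed the filter in each experiment. These are the muscle and brain forms of the enzymes, glycogenin (Gyg), phosphoglucomutases, the other phosphorylase kinase and phosphatase subunits, the kinases Gsk3a and Gsk3b, and the genes of lysosomal and Lafora-type glycogen handling. Phkg1, Ppp1r3a, Ppp1r3d and Ppp1r3f passed in no experiment. Most of the list was not called. It gave 0 calls of 19 from ZT10 to ZT14-unfed, in vehicle meal, after dex and for the interaction of dex and S961, and 0 of 20 between diets in fed livers and for the interaction of meal and diet. The limma tests at an unadjusted p under 0.05 counted 2, 4, 2 and 0 genes in the first 4 of these and 2 and 2 in the other 2. In L-GRKO 1 of 19 was called, where 6.68% of all genes were, and from ZT14-unfed to ZT14-fed 1 of 19, where 6.76% were. Between diets in unfed livers 1 of 20 was called, where 5.22% of all genes were.

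Gsk3b, a kinase that phosphorylates and so inhibits glycogen synthase, averaged 6.42 RPKM in fed vehicle, 4.77 after S961 and 4.20 after both agents, and was called in both comparisons (-0.40, SE 0.10, adjusted p = 0.047, and -0.56, SE 0.10, adjusted p = 0.0018, limma) and against unfed vehicle (-0.44, SE 0.10, adjusted p = 0.0229).

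Stbd1, a glycogen-binding protein, fell to 14.8 RPKM after both agents from 30.1 in unfed vehicle mice (-1.02, SE 0.21, adjusted p = 0.013, limma), and averaged 30.2 in L-IRSdKO and 58.4 in floxed controls (-0.93, SE 0.27, adjusted p = 0.0457). In L-IRSdKO, 3 of 21 were called, where 17.4% of all genes were, and the others were Pgm2 (0.74, adjusted p = 0.0252) and Phkg2, the liver catalytic subunit of phosphorylase kinase (-0.43, adjusted p = 0.0409, limma). The meal in lean mice called 5 of 20, where 23.4% of all genes were called, and among them Gys1 rose by 0.50, Ppp1r3e by 0.38 and Nhlrc1 by 0.67, and Epm2a fell by 0.91 on the log2 scale. In obese mice it called Gyg alone (-0.79, SE 0.20, adjusted p = 0.0389, limma). Further calls were Pgm3 from ZT10 to ZT14-fed (0.42, adjusted p = 0.0492) and Phka1 after both agents (-0.48, adjusted p = 0.0208, limma).

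Over the 16 groups, with each gene's log2(RPKM + 0.5) centred within its experiment, the glycogen genes did not share a common pattern. Ugp2 and Phka2 were most alike (Pearson r = 0.845), while Ppp1r3b went against both (-0.739 with Ugp2 and -0.794 with Phka2). Among the 3 phosphatase subunits r was 0.38 between Ppp1r3b and Ppp1r3c, -0.45 between Ppp1r3b and Ppp1r3g and -0.206 between Ppp1r3c and Ppp1r3g. The group means share libraries and experiments, so these values are a description over 16 points. Among 8994 genes that averaged 1 RPKM or more in each experiment, those most like Ppp1r3g were Smim13 (0.964) and Serinc1 (0.938), those most like Ppp1r3c Aldh16a1 (0.926) and Galnt11 (0.897), and those most like Ppp1r3b Nop16 (0.946) and Ube2k (0.929). Slc2a2, the liver glucose transporter GLUT2, was most like Ugp2 (0.96), followed by Cblc (0.922). The highest values were lower for Pygl (Diablo 0.844, Ppil2 0.833) than for Gys2 (Il17rb 0.903, Fmo4 0.888), Gbe1 (Lactb2 0.934, Tmub2 0.914) or Phka2 (Nudt16 0.927, Syt1 0.921).

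In the mm9 annotation Gys2 lies at chr6:142371133-142421629, Pygl at chr12:71291798-71332475, Ugp2 at chr11:21221141-21271204 and Ppp1r3c at chr19:36806227-36811143, all on the minus strand. Gbe1 lies at chr16:70314194-70569961, Ppp1r3b at chr8:36438795-36451178, Ppp1r3g at chr13:36050708-36062257 and Phka2 at chrX:156940098-157036810, all on the plus strand. Pygl, Ugp2, Gbe1 and Phka2 each overlap a gene on the other strand, and whether the counting used strand is not given in the sources used here, so reads of the overlapping partner may be included in their values.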

How the data were processed

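RNA was measured in 54 liver libraries. The authors aligned reads to mm9 with STAR, per the labels, and deposited RPKM values for 35707 RefSeq identifiers, of which 305 had no symbol in the name table and were left out. How reads were counted is not given in the sources used here. The deposited peak lists for GR, FOXO1 and DHSs, called with HOMER in mm9, hold positions without scores (units of another kind), and the GR and FOXO1 lists keep sites found in both replicates. Per symbol the identifier with the highest mean RPKM was used, and values were analysed as log2(RPKM + 0.5) with limma 3.58.1 in R 4.3.3, each of 5 experiments fitted apart with a variance trend, leaving out genes under a mean of 0.5 RPKM. There were 16 comparisons, called at a Benjamini-Hochberg adjusted p under 0.05. Peaks and sequences were placed on the NCBIM37 (mm9) genome with GENCODE vM1, with distances from the peak centre to the most upstream start of a protein-coding transcript. Overlap meant at least 1 bp. Python 3.11.15, numpy 2.4.6 and pandas 2.3.3 were used, and the fit was tested on simulated data. Alternatives changed the pseudocount, filter, scaling, variance trend, threshold, RefSeq identifier, groups fitted together, a block for replicate number, a library series term and each library in turn. The genes, the list of 25 further genes and the tests were chosen with earlier results of these data known. Replicates are single mice, so p-values measure the spread between these mice. Named genes were the 8, those of the list that were called (1 item is not reported here), the targeted genes, and for each of the 8 the 2 genes most alike over groups. The treatment label of some libraries given S961 spells the compound with other final digits; titles were followed.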

Additional observations from a re-analysis of the deposited data

Results flagged for a closer look

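In groups of 4 mice, 5 of 72 sets of values had a mouse far from the other 3, by the gap to its nearest neighbour relative to the range (Dixon's criterion at 95%). Chance flags about 1 in 20 such sets. In fed mice given dex and S961, replicate 4 was lowest for Gys2, at 130 RPKM against 156 to 161, and for Gbe1, at 34.1 RPKM against 42.5 to 43.8. Replicate 4 was also the lowest Gbe1 mouse in the other injected groups. It had 38.7 RPKM in unfed vehicle, 36.3 in fed vehicle, 34.3 in dex and 36.7 in S961 mice. The flag for Gbe1 is thus not particular to the group given both agents. In fed mice given S961 alone, replicate 3 was highest for Ppp1r3b, at 131 RPKM against 90.6 to 96.2. Among the L-IRSdKO mice replicate 1 was highest for Ppp1r3b, at 127 RPKM against 41.8 to 52.0, and among their floxed controls replicate 1 was highest for Ppp1r3c, at 168 RPKM against 96.6 to 99.6.

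The values of Ppp1r3c went opposite ways with the meal on the 2 diets: each fed lean mouse was below each unfed lean mouse, and each fed obese mouse above each unfed obese mouse. The interaction was 2.43 on the log2 scale, with an adjusted p of 0.0708 in limma, which missed the threshold, so a difference between the diets was not established.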

How the results depend on the processing

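No direction of a called gene reversed in any alternative. Of 254 refits of called genes under other settings 213 kept their call and 41 lost it, and of 140 refits without a library 84 kept it and 56 lost it. With 2 to 4 mice per group many calls lay near the threshold, and RPKM gives no depth with which to bound low values such as those of Ppp1r3g.

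The number of the 8 genes called moved as follows. The share of all genes called is not given for these refits, nor for those without a library or with a block. From these counts alone, a change in the 8 genes therefore cannot be told apart from a change over all genes. With the compared groups fitted alone it was 0 for dex, S961, the meal in obese mice and obese against lean unfed mice, 3 for the meal in lean mice and for ZT10 to ZT14-fed, and 2 for both agents against unfed vehicle and for obese against lean fed mice. At a threshold of 0.01 it was 0 for dex, S961, the meal in obese mice, both agents against unfed vehicle and obese against lean unfed mice, and 1 for L-IRSdKO, ZT10 to ZT14-unfed and ZT14-unfed to ZT14-fed. With median-ratio scaling it was 2 for the meal in lean mice, 2 for both agents against unfed vehicle and 3 for ZT10 to ZT14-fed, and with quantile normalization 4 for the last. With no filter it was 2 for the meal in obese mice, 1 for ZT10 to ZT14-unfed, and 0 for S961, for both agents against unfed vehicle and for ZT14-unfed to ZT14-fed. A filter at 2 RPKM gave 2 for both agents against unfed vehicle and for ZT10 to ZT14-fed. A pseudocount of 0.1 gave 0 for S961, both agents against unfed vehicle and obese against lean unfed mice, and 3 for ZT10 to ZT14-fed. Without a variance trend S961 gave 0, and with a library series term both agents against unfed vehicle gave 2. The causes were not tested.

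Without 1 library, the numbers called ranged from 2 to 5 for L-IRSdKO, 0 to 2 for S961, 1 to 4 for ZT10 to ZT14-unfed, 0 to 3 for ZT14-unfed to ZT14-fed, 0 to 1 for dex, 1 to 6 for the meal in obese mice, 0 to 1 for both agents against unfed vehicle, 0 to 1 for the interaction of meal and diet and 0 to 2 for obese against lean unfed mice.

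Among injected mice, deviations of mice with the same replicate number correlated with a median r of 0.161 over 40 pairs (-0.139 to 0.648), against -0.0545 for other numbers, so they went together in part but not in every pair. Medians were between -0.0431 and 0.0359 in the other experiments, and the numbers were not taken to pair mice. In the injected groups the SD of log2 deviations from the group median was 0.356 to 0.431 for replicate 4. It was 0.193 to 0.401 for the other injected mice. With a replicate block the number called was 2 for the meal in obese mice, 3 for both agents against unfed vehicle, 1 for fed against unfed vehicle (Ppp1r3b) and 2 for ZT10 to ZT14-fed.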
